A study of Mus musculus with 2 samples.

Results

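Genes of the cadherin, desmosome, claudin, zonula occludens and connexin families were measured in corneas with spontaneous degeneration, set against normal corneas. The mice were of the BALB/c strain and had the disease on one side only. They were chosen by name alone: spots named Cdh, Cldn, Pkp, Tjp, Dsc, Dsg, Gja, Gjb or Gjc with a number, or Dsp, Jup, Evpl, Ppl, Perp or Ocln. This gave 64 names on 70 spots, of 14799 names and 35852 gene spots on the array, and no spot was named Dsp. The names fall into 11 cadherins, 8 desmosomal cadherins, 8 desmosomal plaque genes (Perp, a membrane protein of desmosomes, is counted with them), 16 claudins, 5 tight junction plaque genes including occludin, and 16 connexins. Amplified, labelled RNA from the pair of tissues was put on 2 arrays of 2 colours, with the degenerative cornea in Cy5 and the normal cornea in Cy3 on array 1 and the dyes swapped on array 2. The labels give neither group a treatment or an engineered allele. No source used here gives the age or number of the mice, or says whether their RNA was pooled.

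Ratios are log2 values normalized by the authors, with degenerative cornea on top and normal cornea below. The arrays are a dye swap and count as 1 replicate. The SD of the arrays therefore measures technical spread only, no test across animals could be made, and no p-value is given. In whole tissue RNA, fewer cells of a type and less RNA per cell cannot be told apart.

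Cell junctions hold epithelial sheets together and seal them. Adherens junctions and desmosomes join neighbouring cells through cadherins, whose tails are tied to actin or to keratin by plaque proteins. Tight junctions close the space between cells with claudins and occludin on a scaffold of zonula occludens proteins, and gap junctions connect cytoplasms through channels built of connexins. The corneal surface is a stratified epithelium whose outer cells carry the tight junction barrier, and the inner face of the cornea is a single layer of endothelium.

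A spot was used if at least 1 tissue exceeded the background limit on each array. The limits, set from 632 spots named Empty, were 290 and 788.5 intensity units on arrays 1 and 2 in the degenerative cornea's channel, against 569.5 and 373.2 in that of the normal cornea. Of the 64 names, 34 passed and 30 did not. In 29 of the 34, both tissues were above background on both arrays. The corneal markers Krt12 and Aldh3a1 were saturated in both tissues, but the RNA also held retinal and lens transcripts, which differed between the tissues far more than the junction genes. The 10 photoreceptor markers above background had a median ratio of -1.56 with 9 of them at least 2-fold lower on each array. The 9 lens markers had a median of 1.63 with 5 at least 2-fold higher. Of 7896 named genes, 0.709% were lower and 0.317% higher by that measure. Both tissues were above background on both arrays in 7 of the 10 photoreceptor markers and 8 of the 9 lens markers. The others passed without a measurable level in every channel. The number of arrays limits the precision.

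Most epithelial junction genes differed little between the tissues, and the genes that stood lowest were not desmosomal. Cldn5, Cldn10 and Cdh2 had the lowest ratios, and the desmosomal cadherins Dsg2, Dsc2 and Dsg3, the connexin Gjb2 and the scaffold gene Tjp1 the highest. Calls needed a difference of 2-fold or more, in the same direction on each of the arrays. None of the 34 junction genes was called higher and 2 were called lower, beside 0.317% and 0.709% of 7896 named genes. Both lower calls used spots that were below background in degenerative cornea on at least 1 array, and with both tissues required above background on both arrays none of 29 junction genes was called in either direction, beside 0.252% higher and 0.444% lower of 6752 named genes. At 1.5-fold none was higher and 3 were lower, where Cdh2 joined the others, beside 0.760% and 1.51% of the named genes. Small ratios above 0 on both arrays were held by 22 of 34 junction genes (64.7%), beside 34.6% of the named genes, and ratios below 0 on both arrays by 5 (14.7%), beside 32.9%. The median junction ratio was 0.11, and that of the named genes 0.0081.

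Without normalization beyond centring, 7 of 34 junction genes (20.6%) and 13.9% of named genes were above 0 on both arrays, while the junction median was 0.12. Because 5 of the 34 genes passed through only 1 tissue on some array, the counts of signs were also taken where both tissues were above background throughout. There 20 of 29 genes were above 0 on both arrays, beside 37.1% of 6752 named genes, and 3 were below, beside 32.6%.

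**Figure D1:**
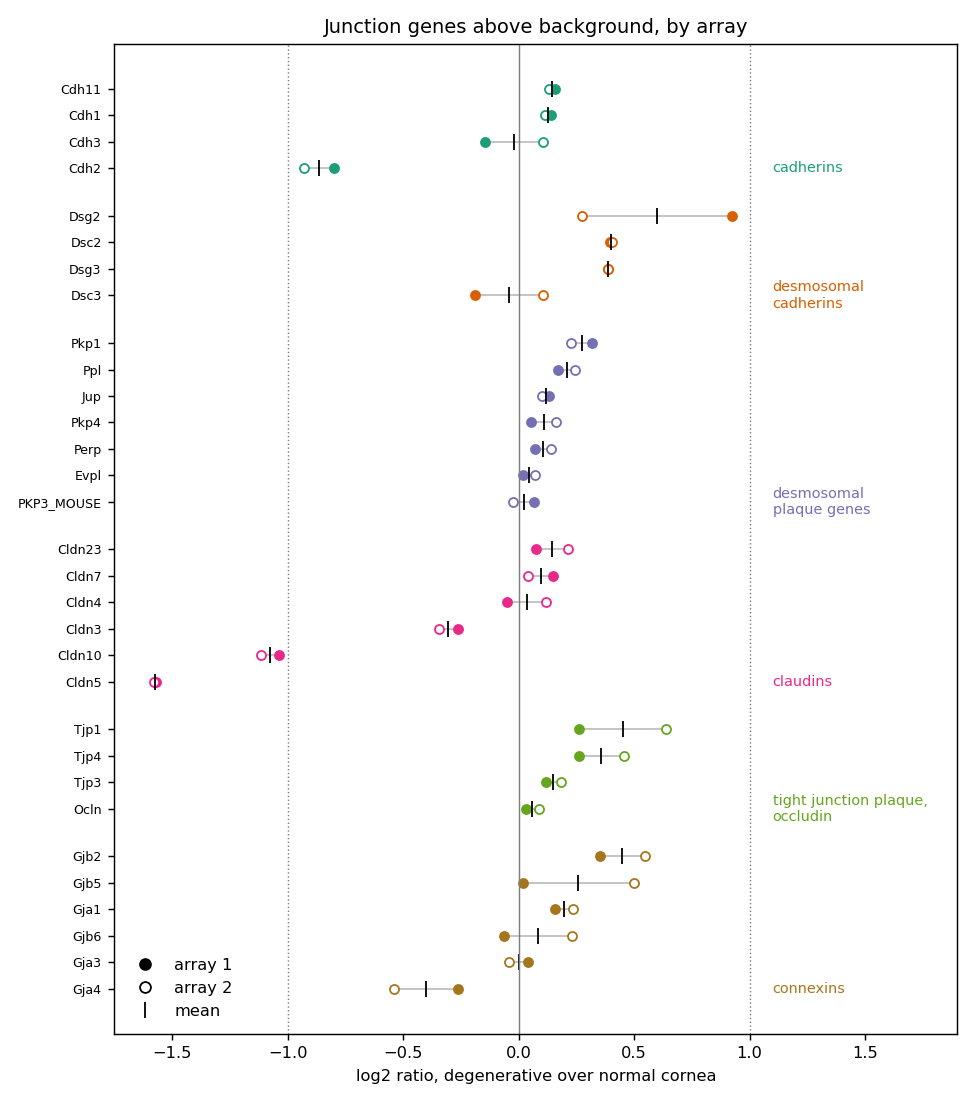
Log2 ratio (x axis) of the junction genes named here that were above background (rows, by junction type), with array 1 as filled points, array 2 as open points and the mean as a tick; dotted lines mark 2-fold. Cldn5 and Cldn10 lie beyond the lower line on both arrays, and no gene lies beyond the upper line on either.

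The arrays gave close values for most of these genes. The median SD between arrays was 0.062 for the 34 junction genes and 0.10 for the named genes. Across the 34 genes the ratios of the arrays had Pearson's r = 0.878, and without Cldn5, Cldn10 and Cdh2 r = 0.571 over 31 genes. Across the 7896 named genes r was 0.429. Where both tissues were above background on both arrays, r was 0.663 over 6752 named genes and 0.856 over 29 junction genes. The 0.571 without Cldn5, Cldn10 and Cdh2 lay below 0.663, so r does not show closer agreement for junction genes than for named genes. These values describe genes measured on the same arrays with the same RNA, which are not independent points. Wide gaps were seen in Dsg2 and Gjb5, whose SDs were 0.46 and 0.34.

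**Figure D2:**
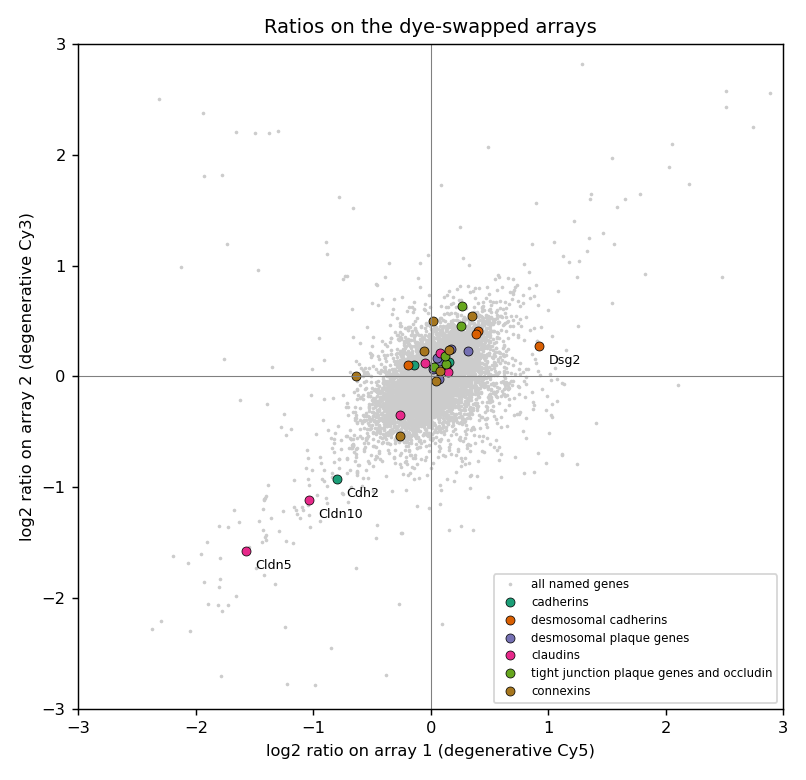
Log2 ratio on array 1 (x axis) against array 2 (y axis) for 7904 names above background (grey, 10 of them outside the axes) and the junction genes in colour by type. Cldn5, Cldn10 and Cdh2 lie at the lower left on both arrays, and Dsg2 lies away from the diagonal.

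Claudins were divided, with 2 genes called lower, 1 slightly below 0 and 3 near 0. Cldn10, which forms paracellular ion pores and is transcribed from alternative first exons, had 2 spots. The brighter spot had intensities of 2340 and 2214 in degenerative cornea (arrays 1 and 2), against 4983 and 5014 in normal cornea, with ratios of -0.97 and -1.18. The dimmer spot had 383 and 419 in degenerative cornea, against 1052 and 679 in normal cornea, with ratios of -1.10 and -1.05. Both spots were lower in degenerative cornea on both arrays. Their mean was -1.08 ± 0.06, or 2.11-fold lower. The brighter spot alone (mean -1.08) misses the 2-fold rule on array 1, so the call rests on the dimmer spot, which was not above background in degenerative cornea on array 2.

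Cldn5, the main claudin of blood vessel endothelium, was dim. It had intensities of 188 and 216 in degenerative cornea, below the limits, against 792 and 399 in normal cornea, just above them. Its ratios of -1.57 and -1.58 nearly coincided, but the degenerative cornea gave no measurable level. Only an approximate bound of 1.36-fold lower can be given, from scaled signals averaged over the arrays. On array 2 alone, normal cornea's unscaled 399 was under the degenerative channel's limit of 788.5, so that array sets no firm bound. Of 9 blood endothelium markers on the array, only Kdr (0.13 ± 0.30) and Flt1, a vascular growth factor receptor, were above background. Flt1 was called lower, with ratios of -1.17 and -4.80 that differ widely, but it was not above background in degenerative cornea. Its intensities were 276 and 46 in degenerative cornea, against 860 and 409 in normal cornea. The summed intensity of Kdr and Flt1 was 1319 and 1292 in degenerative cornea, against 1988 and 1271 in normal cornea. Pecam1, Tie1, Tek, Emcn, Vwf, Eng and Esam were not above background in the tissues.

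Retinal and pigment cell markers were lower beside Cldn10 and Cldn5. The photoreceptor list summed to 43485 and 44046 in degenerative cornea, against 151880 and 132311 in normal cornea, and Prph2 and Nrl in it were not above background. The pigment cell and ciliary body list, with 2 of 5 markers above background (Tyrp1 and Dct, median -0.86), summed to 16126 and 16308 in degenerative cornea, against 30549 and 28643 in normal cornea. Tyr, Rpe65 and Best1 of that list were not above background. The part of these tissues in the claudin ratios was not tested.

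Cldn3, an epithelial barrier claudin, had intensities of 3231 and 3522 in degenerative cornea, against 4157 and 4230 in normal cornea, with a ratio of -0.30 ± 0.06. It was below 0 on both arrays without reaching 1.5-fold. Cldn4 (0.034 ± 0.12), Cldn7 (0.096 ± 0.08) and Cldn23 (0.14 ± 0.10), which are claudins of epithelia, had ratios between -0.051 and 0.21 on the arrays. The claudin median was -0.13 over 6 genes, but it was 0.034 over the 5 with both tissues above background and 0.051 over all 16 without a filter, so it has no settled direction.

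The bases just before the start sites of the called claudins are shown because Cldn10 has alternative starts. Which of its transcripts each Cldn10 spot reports was not examined, since no probe sequences were used here. Each run is the 250 bases before a RefSeq start on GRCm38.p6, read along the gene. Capitals mark matches, on either strand, to an E-box (CAGGTG), a GC box (GGGCGG), an AP-1 site (TGANTCA) or a TATA box (TATAAA). No matches overlap in the sequences shown. The upstream Cldn10 start lies behind chr14:118787621-118787870 (plus strand, 36% G and C), the downstream one behind chr14:118854700-118854949 (plus strand, 72.4%), and Cldn5 behind chr16:18776597-18776846 (plus strand, 59.6%).
Cldn10 upstream start: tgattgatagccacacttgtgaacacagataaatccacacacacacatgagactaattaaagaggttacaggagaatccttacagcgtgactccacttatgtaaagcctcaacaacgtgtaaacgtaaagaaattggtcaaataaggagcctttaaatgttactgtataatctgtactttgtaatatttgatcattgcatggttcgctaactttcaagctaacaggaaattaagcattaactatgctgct
Cldn10 downstream start: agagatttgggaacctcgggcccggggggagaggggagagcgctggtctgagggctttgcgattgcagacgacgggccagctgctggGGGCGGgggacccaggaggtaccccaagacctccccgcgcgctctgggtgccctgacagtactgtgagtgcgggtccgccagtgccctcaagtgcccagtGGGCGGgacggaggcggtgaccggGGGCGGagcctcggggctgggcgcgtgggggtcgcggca
Cldn5: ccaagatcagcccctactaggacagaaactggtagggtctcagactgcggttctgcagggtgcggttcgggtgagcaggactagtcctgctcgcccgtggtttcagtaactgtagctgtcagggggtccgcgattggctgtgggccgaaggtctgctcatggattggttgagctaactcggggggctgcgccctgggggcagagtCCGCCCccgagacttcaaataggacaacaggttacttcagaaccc

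The upstream Cldn10 window holds none of the 4 motifs and the downstream window 3 GC boxes, and the Cldn5 window holds 1 GC box. GC boxes occur in 32.7% of all 32851 windows of this length, E-boxes in 17.2%, AP-1 sites in 6.75% and TATA boxes in 12.4%. For 33 of the 63 distinct symbols of the junction genes the table has windows, 50 in all, of which 25 hold a GC box, 14 an E-box, 3 an AP-1 site and 4 a TATA box. A match is a run of letters and not a binding site.

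**Figure D3:**
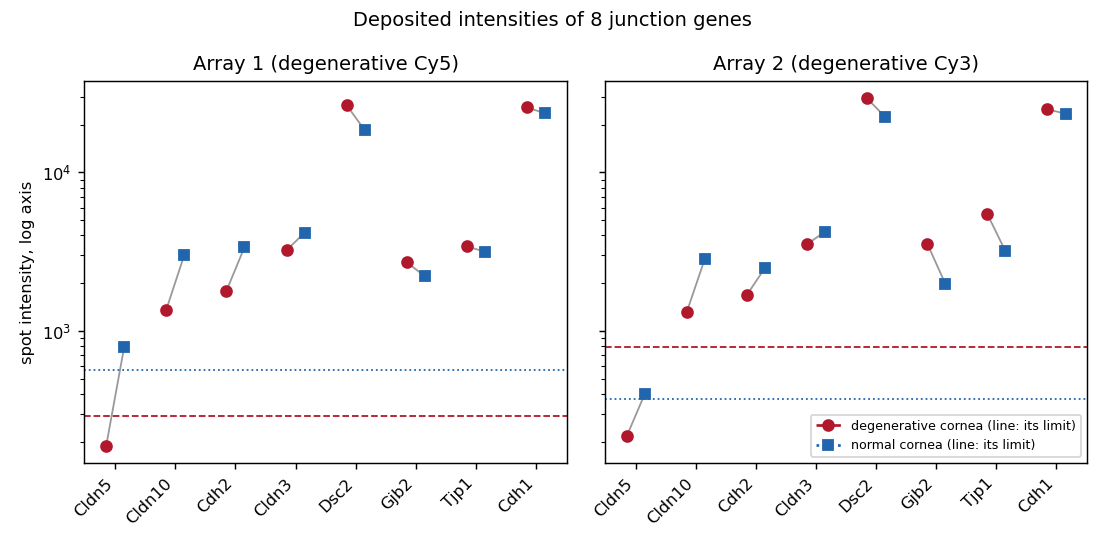
Deposited spot intensity (y axis, log scale) of 8 junction genes on array 1 (left) and array 2 (right), with degenerative cornea as red circles, normal cornea as blue squares and each tissue's background limit as a line. Cldn5, Cldn10, Cdh2 and Cldn3 are lower in degenerative cornea on both arrays, and Cldn5 there lies below its limit.

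Among cadherins, Cdh2 stood apart from the epithelial members. Cdh2, the N-cadherin of neurons, lens and corneal endothelium, had intensities of 1786 and 1689 in degenerative cornea, against 3373 and 2491 in normal cornea. Its ratios of -0.80 and -0.93 gave a mean of -0.86 ± 0.09, or 1.82-fold lower, and degenerative cornea was the dimmer tissue on both arrays. Of the 5 corneal endothelium markers above background, 4 were below 0 on both arrays, with Col8a2 at -0.38 ± 0.01, Car3 at -0.84 ± 0.15 and a median of -0.66. Their summed intensity was 30242 and 30492 in degenerative cornea, against 43138 and 38830 in normal cornea. Retinal neuron and Mueller glia markers were lower too, with 4 of 5 called lower, a median of -1.48 and sums of 2837 and 4474 in degenerative cornea, against 11031 and 8718 in normal cornea. Both tissues were above background on both arrays in only 3 of these 5 markers. Glul, Gfap and Syt1 of that list were not above background. The lens list went the other way, with 5 of 9 markers called higher and a median of 1.63. Its sums were 106436 and 112278 in degenerative cornea, against 36216 and 36073 in normal cornea. Which tissue the Cdh2 transcript came from was not tested.

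Cdh1, the E-cadherin of epithelia, had intensities of 25717 and 25020 in degenerative cornea, against 23597 and 23471 in normal cornea. Its ratio was 0.13 ± 0.02, a 1.09-fold difference in the same direction on both arrays. Cdh3, the P-cadherin of basal epithelial cells, had ratios of -0.15 and 0.11, which differ in sign. Cdh11, a cadherin of mesenchymal cells, had 0.14 ± 0.02. Cdh1 and Cdh11, of epithelium and mesenchyme, thus differed by little between the tissues.

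Desmosomal cadherins, which bind cell to cell through the desmosome, had the highest median of the junction types, 0.39 over 4 genes, and 0.19 over all 8 without a filter. With the 95th percentile of Empty spots as the limit their median was 0.18, below the 0.23 of the connexins, so the order depends on that limit. Dsc2 had intensities of 26571 and 29313 in degenerative cornea, against 18503 and 22399 in normal cornea. Its ratios were 0.40 and 0.41, 1.32-fold, and degenerative cornea was brighter on both arrays. Dsg3, a desmoglein of basal layers and the target of autoantibodies in human pemphigus vulgaris, had intensities of 1563 and 1784 in degenerative cornea, against 1399 and 1113 in normal cornea, and a ratio of 0.39 on each array. The SDs between arrays were small for Dsc2 and Dsg3 (0.0058 and 0.0013). An SD of 2 values is itself imprecise, and the median over the 34 junction genes was 0.062. Dsg2, a desmoglein also found in simple epithelia and heart, had 643 and 914 in degenerative cornea, against 547 and 481 in normal cornea, where it was above background only on array 2. Its ratios of 0.92 and 0.28 agree in sign and not in size, and its spot lay in print block 41, where many Empty spots gave signal. Dsc3, the desmocollin of basal layers, had ratios of -0.19 and 0.11. Dsc1, Dsg1a, Dsg1b and Dsg1c, cadherins of differentiated epidermis, were not above background.

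The plaque genes, which link these cadherins to keratin, had small ratios, with 6 of 7 above 0 on both arrays and none at 1.5-fold. Pkp1, the plakophilin of stratified epithelia, had intensities of 15046 and 14738 in degenerative cornea, against 12170 and 12058 in normal cornea. Its ratio of 0.27 ± 0.06 was the highest of the group. Ppl, the plakin periplakin, had 0.21 ± 0.05, while its partner Evpl, envoplakin, had 0.044 ± 0.04. Jup, plakoglobin, had 0.12 ± 0.02, and Pkp4, an armadillo protein of junctions, had 0.11 ± 0.08 on its brighter spot. The second Pkp4 spot was not above background, and averaging it in would give 0.90. A spot with the protein database name PKP3_MOUSE had ratios of 0.067 and -0.023. Perp, a p53 target needed for desmosomes, had 0.11 ± 0.05, but it was saturated, which can compress a ratio. The group's median was 0.11, and it stayed between 0.073 and 0.16 in the alternatives tried.

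Tight junction scaffold genes and occludin were all above 0 on both arrays, 5 of 5, with a median of 0.15. Tjp1, a zonula occludens protein that also binds connexins, had intensities of 3412 and 5453 in degenerative cornea, against 3160 and 3189 in normal cornea. Its ratios were 0.26 and 0.64 (0.45 ± 0.27), with a size that depended on the array. Tjp3 had 0.15 ± 0.04, and Ocln, the membrane protein occludin, 0.059 ± 0.04. Tjp4, an older name of Tjap1, had 0.36 ± 0.14, with each tissue above background on 1 of 2 arrays.

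The connexins went both ways, with a median of 0.074 over 8 genes, 4 of them above 0 and 1 below 0 on both arrays. Gjb2, a connexin of stratified and inner ear epithelia, had intensities of 2716 and 3558 in degenerative cornea, against 2209 and 1985 in normal cornea. Its ratios of 0.35 and 0.55 (0.45 ± 0.14, 1.37-fold) were the highest among the connexins. Gja1, the connexin found in most cells of the cornea, had 18663 and 19704 in degenerative cornea, against 17047 and 16310 in normal cornea, and a ratio of 0.20 ± 0.06. Degenerative cornea was brighter for both genes on both arrays. The epithelial connexins Gjb5 (0.26 ± 0.34) and Gjb6 (0.086 ± 0.21) had ratios that depended on the array. Gja4, a connexin of blood vessel endothelium, had 427 and 353 in degenerative cornea, against 728 and 418 in normal cornea, with ratios of -0.26 and -0.54 and the degenerative tissue above background on array 1 only.

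Gja3, a connexin of lens fibre cells, had a ratio near 0, while the lens markers were divided. It had intensities of 507 and 600 in degenerative cornea, against 670 and 437 in normal cornea, and ratios of 0.042 and -0.043. In degenerative cornea it was above background on array 1 only. On the same arrays Cryba1 had a ratio of 2.55 ± 0.04, Crybb2 2.07 ± 0.03 and Cryaa 2.49 ± 0.35, and the crystallins Crygs and Crygd had 2.72 ± 0.23 and 1.63 ± 0.03. The other lens markers were closer to Gja3, with Cryab at -0.024 ± 0.002, the fibre cell filament genes Bfsp1 at 0.092 ± 0.07 and Bfsp2 at 0.085 ± 0.05, and the fibre membrane gene Mip at 0.43 ± 0.10. The 9 lens markers summed to 106436 and 112278 in degenerative cornea, against 36216 and 36073 in normal cornea, and the part of lens RNA in the connexin's ratio was not tested.

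The windows before the starts of Gjb2 and Tjp1 are shown as those of the highest junction genes above background in both tissues for which a sequence may be set beside the Cldn windows. Capitals mark the same 4 motifs. The Gjb2 window is chr14:57104703-57104952 (minus strand, 69.2% G and C), with 2 GC boxes and 1 E-box close to the start. The Tjp1 window is chr7:65371245-65371494 (minus strand, 63.2%), with 2 GC boxes. It lies inside the annotated span of Tjp1, before an internal start and not the outermost one, and which start the array spot reports was not examined.
Gjb2: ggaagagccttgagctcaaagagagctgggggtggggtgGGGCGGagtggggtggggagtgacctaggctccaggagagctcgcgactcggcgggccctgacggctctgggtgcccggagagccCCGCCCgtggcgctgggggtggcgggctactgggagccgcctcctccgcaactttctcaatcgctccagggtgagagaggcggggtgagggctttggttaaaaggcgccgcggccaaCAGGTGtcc
Tjp1: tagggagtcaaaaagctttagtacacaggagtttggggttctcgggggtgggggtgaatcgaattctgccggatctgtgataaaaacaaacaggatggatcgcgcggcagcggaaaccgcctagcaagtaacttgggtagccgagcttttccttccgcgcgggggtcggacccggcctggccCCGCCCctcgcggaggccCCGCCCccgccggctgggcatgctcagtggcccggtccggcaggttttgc

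Several of these genes lie side by side in the genome, by the gene order of GRCm38.p6. Some neighbours had unlike ratios and others close ones. Cdh2 is followed on chromosome 18 by the desmocollins and desmogleins, from Dsc3 and Dsc2 to Dsg3 and Dsg2, with at most 1 other protein-coding gene between members of the row. Cdh2 was at -0.86, Dsc3 at -0.042, and Dsc2, Dsg3 and Dsg2 between 0.39 and 0.60. On chromosome 14, Gja3, Gjb2 and Gjb6 are neighbours, and among them Gjb2 (0.45) was above the others (-0.00015 and 0.086). The neighbours Cldn4 and Cldn3 on chromosome 5 had 0.034 and -0.30. Cdh3 and Cdh1 on chromosome 8 had -0.019 ± 0.18 and 0.13 ± 0.02, which differ by less than the SD of Cdh3.

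Other genes of junction build-up and epithelial identity had small ratios as well. Of 61 listed genes, such as catenins, nectins, polarity proteins and transcription factors, 52 were on the array and 41 were above background. None of the 41 was called in either direction, beside 0.317% higher and 0.709% lower of all named genes. On both arrays 22 were above 0, beside 34.6% of the named genes, and 6 were below 0, beside 32.9%. The median of the 41 genes was 0.11. The catenin Ctnnd1, which holds cadherins at the membrane, had the highest ratio, with intensities of 1537 and 1616 in degenerative cornea, against 1079 and 837 in normal cornea, and a ratio of 0.67 ± 0.19. Next were Ctnna2 (0.46 ± 0.14), Ovol1 (0.40 ± 0.05), an epithelial transcription repressor, and the polarity kinase Prkci (0.37 ± 0.002). The lowest were the nectin Nectin3 (-0.47 ± 0.04), Jam2 (-0.39 ± 0.25), an adhesion protein of endothelial junctions, Pard6a (-0.30 ± 0.04) and Cxadr (-0.13 ± 0.17). Ctnna2 was above background in each tissue on 1 of 2 arrays, and Jam2 in degenerative cornea on 1 of 2. The marker list of corneal epithelium had a median of 0.15 over 7 genes, 4 of them saturated, and that of conjunctival and mucous epithelium 0.18 over 8. Medians were -0.17 for 5 keratocyte markers, -0.15 for 3 Schwann cell markers, 0.14 for 2 leukocyte markers and 0.14 for 4 epidermal markers. Single keratocyte markers went both ways, from -0.93 to 0.78. The epidermal list was divided, since Krt16, a keratin of stressed and fast-growing epidermis, was called higher at 1.95 ± 0.10 (3.88-fold), with intensities of 21389 and 23366 in degenerative cornea, against 4784 and 5272 in normal cornea. Krt6a, its partner keratin, had 0.32 ± 0.12 and Krt1 -0.043 ± 0.11.

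**Figure D4:**
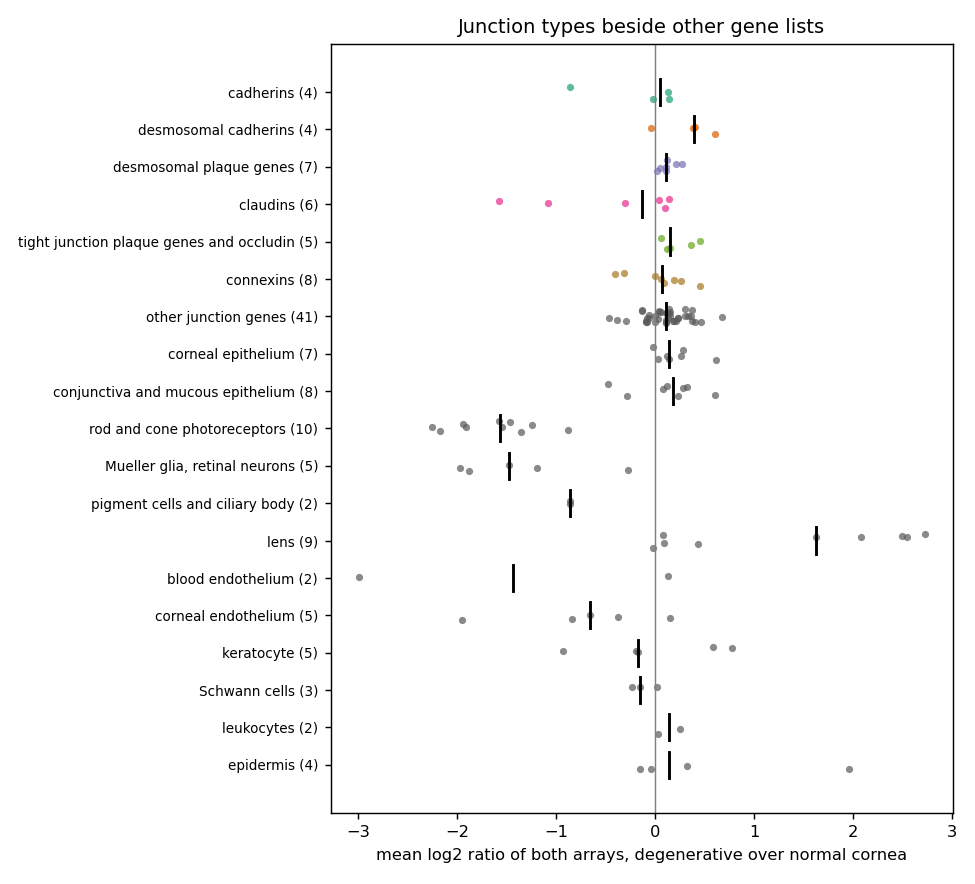
Mean log2 ratio of both arrays (x axis) for each gene above background, by junction type (colour) and by other list (grey), with the number of genes in brackets and the median as a bar. Junction types lie near 0 apart from Cldn5, Cldn10 and Cdh2, while the photoreceptor list has a median of -1.56 and the lens list, which spreads widely, one of 1.63.

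The 30 junction genes that did not pass the background limits were 7 cadherins, 4 desmosomal cadherins, Pkp2, 10 claudins and 8 connexins. Their ratios had opposite signs on the arrays in 20 of 30 cases, and their median SD was 0.40, so no direction is read from them. Among them were Cdh5, the VE-cadherin of blood vessels, Cldn1, a barrier claudin of epidermis, and Gjb1, a connexin of liver and Schwann cells. Gja9, an older name of the neuronal connexin Gjd2, had ratios of -1.06 and -1.30, but its intensities of 52 and 91 in degenerative cornea, against 350 and 82 in normal cornea, were below every limit. Of 5 spots that carry protein database names for claudins and cadherins outside the naming rule, CAD4_MOUSE alone was above background, with ratios of 0.16 and -0.096.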

How the data were processed

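The log2 ratios were normalized by the authors per the file headers, with degenerative over normal cornea as their direction; the deposited linear ratio holds the same values. The deposited Cy5 and Cy3 intensities include values below 0, as after background subtraction. No source used here names the normalization method or the image software. On used spots the log2 ratios correlated with a print-tip loess (r = 0.992 on array 1 and 0.993 on array 2) run in limma 3.58.1 (R 4.3.3).

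Control spots (1780) were left out. A channel's limit was the median of 632 Empty spots plus 3 scaled median absolute deviations (factor 1.4826), and 14894 spots passed. Spots of a name were averaged. Of the 64 names, 59 were current symbols, 4 were synonyms of 1 symbol and 1 matched none; the spot named Gjc1 may be Gjc1 or Gjd3. A channel at 98% of its highest intensity counted as saturated. The bound for Cldn5 sets normal cornea's mean against a floor averaged over arrays, where each floor is the dim spot's own signal or the weakest one above background, whichever is larger, after loess and Aquantile scaling. Summaries used Python 3.11.15 and pandas 2.3.3. The call rule was run on simulated ratios with known values. That simulation held no dye effect and no signal near background, so it does not bear on the Cldn5 and Cldn10 calls.

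Any junction gene above background could be named, as could the 4 other junction genes at each end and up to 3 of the brightest markers of a list, besides markers named as not above background and the remaining lens markers, which were named after their values were seen. The genes, lists and background limit were chosen with earlier results of these data known. Promoter windows and gene order are from RefSeq, GRCm38.p6. A few genes are counted in the totals but not reported here by name, in the text or in the plot of genes by junction type.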

Additional observations from a re-analysis of the deposited data

How the results depend on the processing

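With the arrays taken singly, print-tip loess, loess over the whole array or the series value table, Cldn5 and Cldn10 were both called lower, and no setting called a junction gene higher. The count of genes called lower was 1 with raw centred ratios (Cldn5) or the brightest spot per name (Cldn5), and 0 with both channels required above background or with the 95th percentile of Empty spots as limit, which both remove Cldn5 and the dimmer Cldn10 spot. Genes below 0 on both arrays numbered 10 of 64 without a filter and 3 under each stricter limit, and 7 to 10 on a single array; genes above 0 numbered 7 with raw centred ratios, where no dye correction was made. The median of all junction genes was 0.074 to 0.12 on a single array. The desmosomal cadherin median was 0.46 under print-tip loess (0.457), loess (0.4563) and raw ratios (0.4627), 0.187 without a filter, 0.18 with the 95th percentile limit and 0.33 to 0.39 on a single array. The claudin median was -0.118, -0.124 and -0.115 under these normalizations, -0.156 to -0.152 on a single array, and turned to 0.0507 without a filter and 0.0345 under each stricter limit. The scaffold and occludin median was 0.192 with loess and 0.255 with the brightest spot, the plaque median 0.162 without a filter, and the connexin median 0.227 with the 95th percentile limit. Other junction genes numbered 11 above and 2 below 0 with raw ratios, 11 below 0 without a filter (median 0.0453) and 12 to 13 below 0 on a single array. Leaving out 4 print blocks with signal in Empty spots, an alternative chosen after seeing the data, removed Dsg2 and left both claudins called. Signal near background limits Cldn5, Gja3, Gja4, Dsg2, Tjp4, Ctnna2, Jam2, Flt1 and the dimmer Cldn10 spot, and 1 replicate limits every result.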
